A study of Mus musculus with 9 samples.

Results

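The esophagus of wild type newborn mice was compared with a common reference RNA on the 4 of 9 arrays of the series whose title and genotype name the wild type. These were C57BL/6J mice at postnatal day 0 with no transgene named in the labels. Esophageal RNA was labelled with Cy5 and hybridised to each Agilent array together with Cy3-labelled Universal Mouse Reference RNA, a pool from 11 mouse cell lines, and no array had the dyes swapped. The other 5 arrays, from p63 knockout mice with and without a Cdx2 transgene, enter no comparison here. The labels call the 4 arrays biological replicates. They give the cell type as epithelium, while the extraction protocol speaks of esophageal tissue, and the source field of replicate 4 names a p63-/- mouse although its title, genotype and description say wild type. Trp63, the gene of p63, read 3.54, 3.79, 4.35 and 4.13 on replicates 1 to 4 as a log2 ratio of esophagus over reference, so that replicate 4 lay within the range of the others.

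The newborn mouse esophagus is a tube lined by a squamous epithelium of several cell layers. Basal cells that express Trp63 and the keratins Krt5 and Krt14 divide on the basement membrane, and their daughters move up, switch to Krt4 and Krt13 and build a cornified envelope. Around the epithelium lie connective tissue, vessels, nerves and a muscle coat, in which smooth muscle is replaced by skeletal muscle during development of the mouse. A pool of cell lines holds dividing cells of many origins. The ratio therefore sets the tissue against growing cells, and for each gene it measures a difference between esophagus and that pool, not an absolute level.

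Of 41174 probes, 29422 were well above background in the esophagus channel on all 4 arrays, and they stood for 19710 genes, each read from its probe with the highest mean signal over both channels. A gene was called when its mean log2 ratio differed from 0 in limma (Benjamini-Hochberg adjusted p under 0.05 over all genes) and reached 1 in size, which is a 2-fold difference. By this rule 3509 genes were higher in esophagus than in the reference (17.8% of those tested) and 1182 were lower (6.00%). The adjusted p alone was passed by 75.5% of genes. As no array had the dyes swapped, any dye effect of a probe is part of its ratio. The median of all genes was 0.11. The signals as processed by the scanner software gave 4006 higher and 2250 lower genes, so that higher genes made up 64.0% of calls there against 74.8% here, and centring each array on its median moved that share to 81.6%. The median of all genes was -0.05 and 0.23 under these scalings. Of the 3509 higher genes 3244 were also called with the software's signals. Array pairs correlated at 0.921 to 0.971 across genes. Between 30014 and 32372 probes per array were above background in Cy5, and the median Cy5 signal was 309 to 368 intensity units. All 4 arrays lay on 1 slide and were scanned together. Of the described genes that were called, 60 had another probe above background in both channels on all 4 arrays, and in 13 of these such a probe fell short of a 2-fold difference, as given beside each. In the rest every such probe reached 2-fold in the same direction, some at a much smaller size. The lowest mean log2 ratio among such probes was 2.58 for Lyve1, 2.11 for Foxp2 and 2.17 for Gucy1a1. It was 1.94 for Cdh5, 1.28 for Aldh1a3 and 1.23 for Myocd. Values below are log2 ratios on replicates 1, 2, 3 and 4 in that order, followed by the mean ± SD (n = 4), and a list's median is over its tested members.

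Measurements on the arrays bear on the size of these ratios. In the spike-in controls, whose true ratios are known, the software's fit of observed against expected log ratio had slopes of 0.674, 0.700, 0.722 and 0.713 on the 4 arrays. The Cy3 channel, in which the same reference RNA was used each time per the labels, also moved with the esophagus channel. Among the 83 genes whose Cy5 signal differed by over 4 on the log2 scale between arrays, Cy3 differed by over 1 in 74, and in 70 of these the highest and the lowest array were the same in both channels. Pga5, which encodes a pepsinogen of the stomach, had Cy5 signals of 385959, 654, 285 and 175 and Cy3 signals of 42575, 123, 73.6 and 58.8. Its reference signal was high only on replicate 1, the array where its esophagus signal was high. Over those 74 genes the Cy3 signal rose by 1.04% to 15.4% (median 7.28%) of the rise in Cy5. The cause was not tested. Where both channels rise on an array, the ratio rises less than the esophagus signal does, and ranks of ratios below are a description only.

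**Figure D1:**
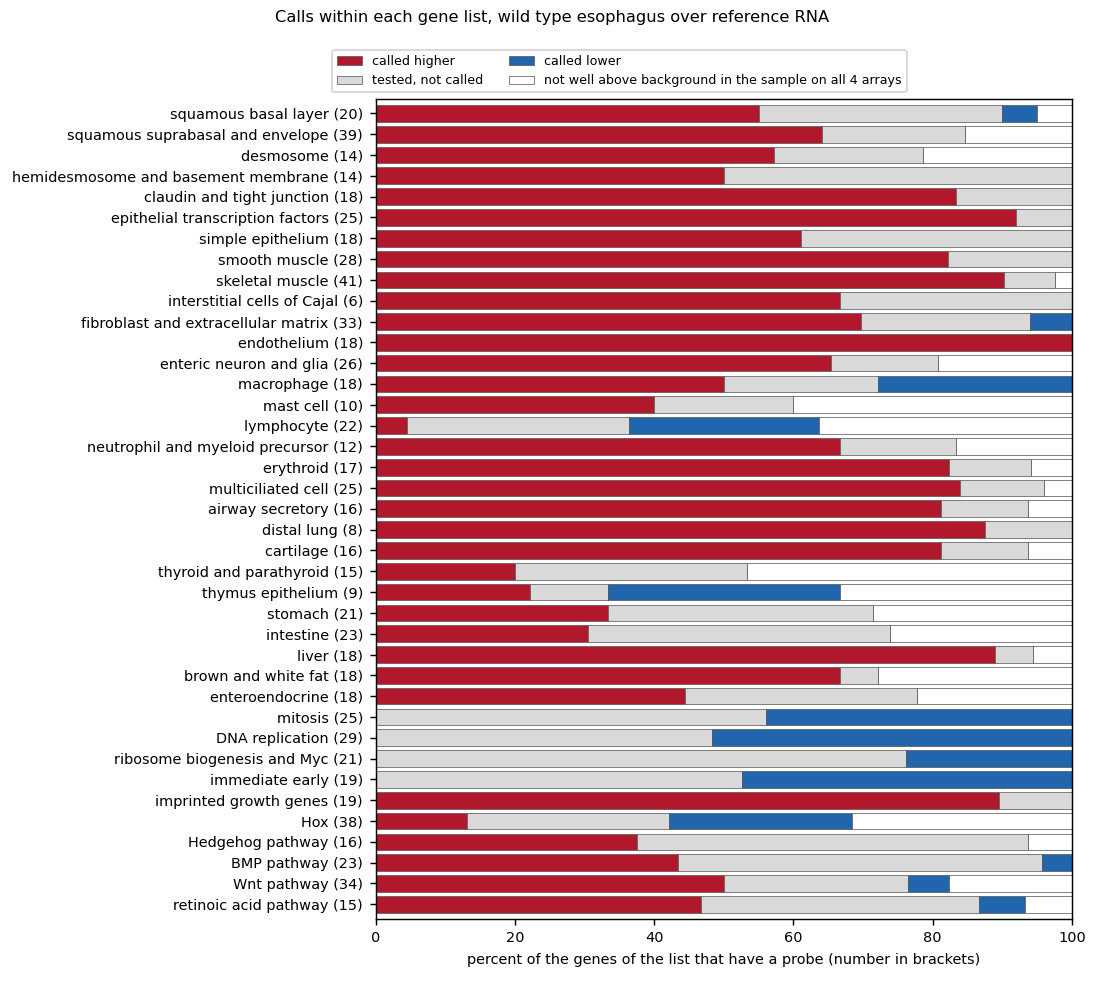
Share of each gene list that was called higher (red), called lower (blue), tested and not called (grey) or not well above background in the esophagus channel on all 4 arrays (white), as a percent of the listed genes with a probe, whose number is in brackets. All 18 endothelial genes and 37 of 41 skeletal muscle genes were higher, while the mitosis, DNA replication, ribosome biogenesis and immediate early lists had no higher gene.

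Most markers of squamous epithelium were above background on all 4 arrays, 19 of 20 for the basal layer and 33 of 39 for the layers above it. In RNA from whole tissue, fewer cells of a type and less RNA per cell cannot be told apart. Trp63 (probe at chr16:25892012-25892071, mouse build mm9) averaged 3.95 ± 0.36, and its adjusted p was 5.9e-06. Krt5, the type II keratin of basal cells (probe at chr15:101537514-101537573), read 2.24, 2.68, 2.80 and 2.68 (mean 2.60 ± 0.25, adjusted p 8.4e-06). Its partner Krt14 read 1.01, 1.11, 1.31 and 1.31 (mean 1.19 ± 0.15, adjusted p 4e-05), and its call ended with the scanner software's signals, which gave 0.98. Col17a1, a collagen that anchors basal cells in the hemidesmosome, read 3.45, 3.78, 3.77 and 3.63 (3.66 ± 0.15). Perp, a p63 target in desmosomes, averaged 2.98 ± 0.15, and the neurotrophin receptor Ngfr, a marker of basal cells, 2.87 ± 0.15. Another Ngfr probe averaged 0.55. Of the 19 basal layer genes tested, 11 were higher and 1 was lower, with a median of 1.51 against 0.11 for all genes. The lower share, 5.3%, was near the 6.00% of all tested genes. The lower one was Bnc1, basonuclin 1, a zinc finger protein of basal keratinocytes, at -2.19, -2.15, -2.44 and -2.20 (-2.25 ± 0.13), below the reference on each array. Dsc3, a desmosomal cadherin, was not well above background in the esophagus on any array. Trp63 had 2 further probes, which averaged 0.52 with the reference not above background on any array, and 0.01 with neither channel above it.

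Most tested genes of the differentiated layers were higher, and none was called lower. Krt4, a keratin of the suprabasal esophagus, read 3.56, 3.83, 3.76 and 3.64 (mean 3.70 ± 0.12, adjusted p 1.1e-06), and its partner Krt13 read 2.81, 3.03, 3.11 and 3.01 (2.99 ± 0.13). Replicate 1 was the lowest array for both, by less than 0.4. Aqp3, a water and glycerol channel, read 3.76, 3.86, 4.24 and 4.04 (3.98 ± 0.21). Cysrt1 averaged 3.57 ± 0.14, the calmodulin-like protein gene Calml3 3.34 ± 0.17 and the serpin gene Serpinb5 3.31 ± 0.14. Cysteine protease inhibitors of the stefin family, which squamous epithelium and myeloid cells both express, were among the 20 highest ratios. Cstdc5 read 5.54, 5.87, 6.00 and 5.76 (5.79 ± 0.20), Csta1 averaged 5.73 ± 0.16 and Stfa1 5.60 ± 0.30. These 3 genes belong to 1 family of similar sequence on chromosome 16, and their probes may share transcripts. Their Cy5 signal was highest on replicate 3, at 10890, 12255, 30066 and 13155 for Stfa1 on the 4 arrays. The list of neutrophils and their precursors had its highest median there too (1.38, 1.81, 3.25 and 1.90), and 8 of its 10 tested genes were higher. Cy5 signals were 14999, 20901, 81737 and 24149 for S100a9 and 391, 580, 2907 and 826 for Camp. Those of Ltf, another member, were 8731, 12278, 19093 and 19567, highest on replicate 4. The part of neutrophils and their precursors in the stefin ratios was not tested. Of the 33 suprabasal and envelope genes tested, 25 were higher and 0 lower, with a median of 2.47. Flg, Sprr1b and Sprr2d, genes of the late cornified envelope, were not well above background on any array. The same held for Dsc1, a desmosomal cadherin of cornifying layers. Ivl and Serpinb2 were above background in the reference on all 4 arrays, but in the esophagus on at most 2 and 3. Neither was tested, so neither could be called lower.

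Junction genes of epithelium were mostly higher too. Dsp, desmoplakin, read 3.81, 4.02, 4.19 and 4.14 (mean 4.04 ± 0.17, adjusted p 1.3e-06), while Dsg2 averaged 3.1 ± 0.33 and the plaque protein gene Pkp1 2.43 ± 0.13. Other Dsp probes averaged 2.35, 1.20 and 0.60, the last 2 with the reference above background on 2 and 3 arrays. The other Dsg2 probe with both channels measured averaged 0.59. Of 14 desmosome genes, 11 passed the filter and 8 were higher. Among 14 genes of hemidesmosome and basement membrane 7 were higher, with Frem2 at 3.53 ± 0.20, Fras1 at 2.73 ± 0.09 and the integrin gene Itgb4 at 2.36 ± 0.07. Frem2 and Fras1 encode proteins of the sublaminar matrix. Claudins, the proteins that seal tight junctions, were higher for 15 of 18 genes of that list, with a median of 1.59. Cldn8 was at least 22.2-fold higher on the mean of the 4 arrays, a bound because the reference was not above background on any. This bound is the fold of its mean log2 ratio, 4.47, from the dim reference signal itself. Its arrays read 3.54, 4.40, 4.96 and 4.99. Replicate 1 was the lowest of these. Cldn10 averaged 3.49 ± 0.28, Cldn23 3.27 ± 0.22 and Cldn3 3.15 ± 0.20. Cdh1, E-cadherin, read 3.43, 3.88, 3.53 and 3.48 (3.58 ± 0.20), and Spint1, a protease inhibitor of epithelia, averaged 2.75 ± 0.07. Mal2, a protein of apical transport, averaged 5.50 ± 0.12 and the tetraspanin gene Tspan1 4.90 ± 0.09, both among the 20 highest ratios.

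Transcription factors of epithelium and foregut were higher in 23 of 25 genes, with a median of 2.21. Sox2, which directs the foregut toward esophagus, read 4.14, 4.27, 4.32 and 4.41 (mean 4.29 ± 0.11, adjusted p 1.1e-06). Zfp750, a p63 target that drives late differentiation, read 3.55, 3.81, 3.81 and 3.86 (3.76 ± 0.14). Both genes varied by less than 0.4 between arrays. Foxa2, a pioneer factor of foregut endoderm, read 4.18, 4.04, 3.12 and 3.59 (3.73 ± 0.48), with its lowest value on replicate 3. That array was also the lowest for the distal lung list described below. The intestinal factors Cdx1 and Cdx2 were not well above background in the esophagus on any array.

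**Figure D2:**
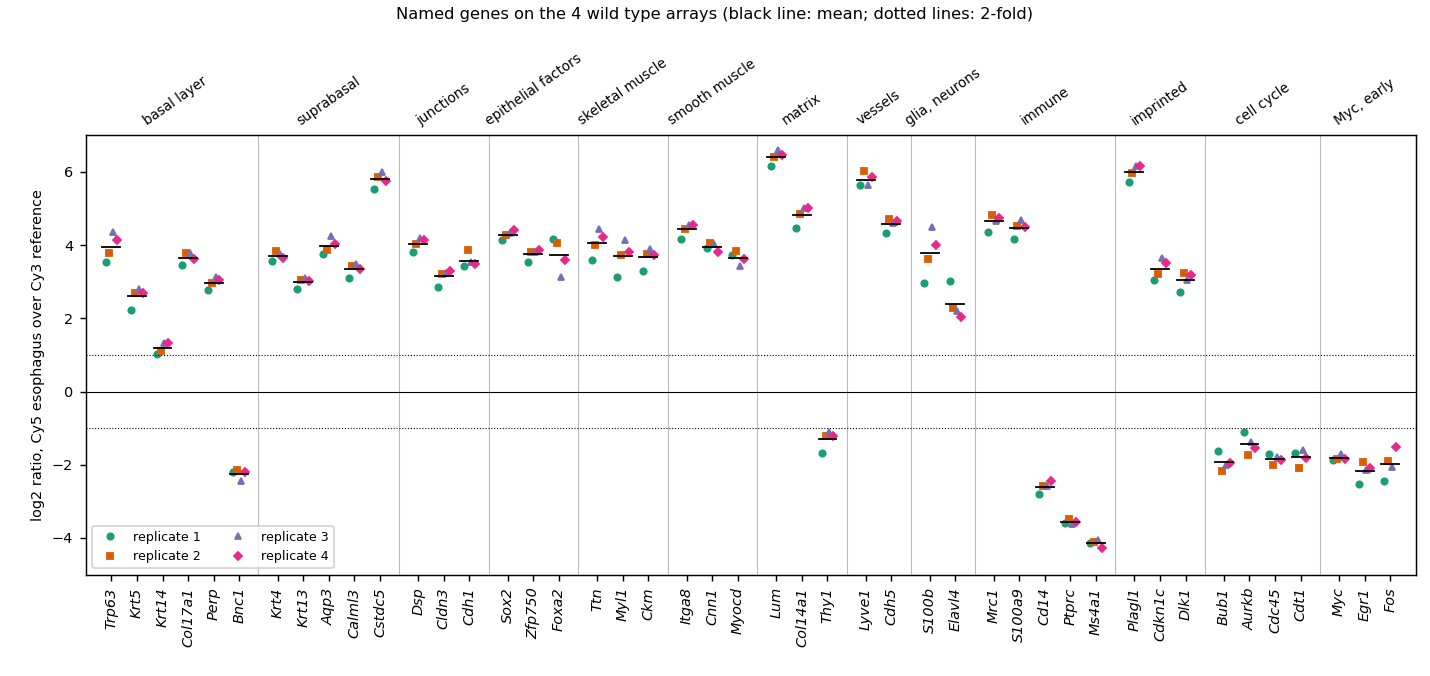
Log2 ratio of esophagus (Cy5) over reference RNA (Cy3) for named genes in 13 groups, 1 symbol per wild type array, with a black line at the mean and dotted lines at a 2-fold difference. Trp63, Krt4, Ttn, Lum and Lyve1 lay above the upper line on all 4 arrays, while Bnc1, Thy1, Ptprc, Myc and the cell cycle genes lay below the lower one.

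Promoters of suprabasal genes often held a TATA box, the core element bound by the TATA-binding protein near the start site. The RefSeq table (GRCm38.p6) gives 250 bases before and 50 after the start and matched 26 of the 40 suprabasal genes, 12332 of the tested genes and 27025 genes in all. The letters TATAAA, searched on the sense strand between 40 and 15 bases upstream, stood in 12 of those 26 promoters (46.2%), against 2.06% of tested genes and 2.22% of all promoters. They were not limited to the genes that were higher: 4 of 14 higher members held them, 3 of 6 that were tested and not called, and 5 of 6 that did not pass the filter. None of the 10 basal layer promoters held them. The 60 bases before the start are shown for the 4 higher members with the box, capitals marking TATAAA, to show how alike its place is (28 to 33 bases upstream). They lie at chr4:41098184-41098243, minus strand for Aqp3, chr3:92458721-92458780, minus strand for Sprr3, chr7:30787845-30787904, plus strand for Krtdap and chr2:130012280-130012339, plus strand for Tgm3.
Aqp3: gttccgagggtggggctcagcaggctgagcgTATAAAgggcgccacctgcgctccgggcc
Sprr3: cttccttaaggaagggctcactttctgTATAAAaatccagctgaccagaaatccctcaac
Krtdap: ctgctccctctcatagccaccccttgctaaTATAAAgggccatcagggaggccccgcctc
Tgm3: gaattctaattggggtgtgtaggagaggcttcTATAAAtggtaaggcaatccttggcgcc
The ratios of these genes were 3.76, 3.86, 4.24 and 4.04 for Aqp3, 3.11, 3.07, 3.28 and 2.90 for Sprr3, which encodes a small proline-rich envelope protein, 2.07, 2.15, 2.24 and 2.08 for Krtdap, a secreted keratinocyte protein, and 1.65, 1.78, 1.59 and 1.67 for Tgm3, a transglutaminase that cross-links the envelope.

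Most genes of both kinds of muscle were higher than in the reference. Skeletal muscle genes were higher in 37 of 40 tested members of 41 listed, with a median of 2.65. Ttn, titin, the elastic filament of the sarcomere, read 3.58, 3.99, 4.44 and 4.23 (mean 4.06 ± 0.37, adjusted p 5.8e-06). Actn2, which anchors thin filaments at the Z disc, averaged 3.78 ± 0.23, the creatine kinase gene Ckm 3.67 ± 0.26 and nebulin, Neb, 3.37 ± 0.24. Myl1, an essential myosin light chain, read 3.13, 3.73, 4.13 and 3.80 (3.70 ± 0.42). Replicate 1 was the lowest of the 4 arrays for each of these 5 genes, and the list's median per array was 2.14, 2.64, 2.95 and 2.85. Smpx, a small protein of striated muscle, was among the 20 highest ratios at 5.25, 5.77, 5.97 and 5.88 (5.72 ± 0.32). Smooth muscle genes were higher in 23 of 28 members and lower in 0, with a median of 2.16 and per-array medians of 2.23, 2.16, 2.27 and 2.15. Itga8, an integrin of smooth muscle and mesenchyme, read 4.17, 4.44, 4.56 and 4.56 (mean 4.43 ± 0.18, adjusted p 1.3e-06). Other Itga8 probes averaged 3.74, and 0.57 with the reference above background on 1 array. Calponin, Cnn1, read 3.91, 4.05, 4.02 and 3.82 (3.95 ± 0.10), Pgm5 averaged 3.88 ± 0.14, the actin-binding protein gene Synpo2 3.82 ± 0.11 and Myocd, the coactivator that turns on smooth muscle genes, 3.66 ± 0.18. Other probes averaged 0.59 and 0.51 for Synpo2 and 0.93 for Pgm5, short of a 2-fold difference. Gucy1a1, a subunit of the receptor for nitric oxide, averaged 5.10 ± 0.19. Kit, the receptor that marks interstitial cells of Cajal and mast cells, read 3.13, 2.95, 2.78 and 2.91 (2.94 ± 0.15). Thbs4, a thrombospondin of tendon and muscle, averaged 3.57 ± 0.18, and Ano1, the chloride channel of the interstitial cells, 1.5 ± 0.54.

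Promoters of skeletal muscle genes held the letters CAGCTG in 14 of 32 matched genes (43.8%), against 15.7% of tested genes and 16.1% of all promoters. CAGCTG is an E-box, a site type bound by basic helix-loop-helix factors such as MyoD, and it reads the same on both strands. All 14 were among the 29 matched members that were higher. With only 2 matched members not called and 1 not tested, this cannot tie the box to the call. Upstream stretches of 60 bases are printed for the 4 with the largest ratios, with the E-box in capitals. They lie at chr1:66945246-66945305, minus strand for Myl1, chr7:19410844-19410903, plus strand for Ckm, chr11:67237720-67237779, plus strand for Myh4 and chr1:135799328-135799387, plus strand for Tnni1.
Myl1: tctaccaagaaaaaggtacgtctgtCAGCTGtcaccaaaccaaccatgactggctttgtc
Ckm: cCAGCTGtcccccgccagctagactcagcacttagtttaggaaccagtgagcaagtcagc
Myh4: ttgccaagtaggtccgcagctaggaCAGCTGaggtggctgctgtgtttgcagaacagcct
Tnni1: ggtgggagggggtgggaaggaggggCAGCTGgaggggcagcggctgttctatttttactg
The box began 224, 249, 67 and 68 bases upstream of the start. Myh4, a fast myosin heavy chain, read 3.27, 3.53, 3.26 and 3.06, and Tnni1, the slow troponin I, read 2.80, 3.13, 3.24 and 3.03. The Cy5 signals of Myh4 were 14443, 53523, 157370 and 201021 and its Cy3 signals 1000, 3408, 13213 and 15697. Both channels rose from replicate 1 to replicate 4, which its ratios do not show. The CArG box bound by serum response factor, searched as CC, 6 bases of A or T, and GG, was found in 1 of 23 smooth muscle promoters (Myl9) against 1.40% of tested genes. In the basal layer 5 of 10 promoters held CAGCTG.

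The highest ratio among genes with both channels above background was that of a connective tissue gene. Lum, lumican, a proteoglycan that spaces collagen fibrils (probe at chr10:97035210-97035269, mm9), read 6.15, 6.42, 6.59 and 6.46 (mean 6.41 ± 0.18, adjusted p 1.1e-06). Col14a1, a collagen on fibril surfaces, read 4.46, 4.84, 5.0 and 5.0 (4.83 ± 0.25), while Mfap4 of elastic fibres averaged 3.66 ± 0.17 and periostin, Postn, 3.57 ± 0.29. In each of these 4 genes replicate 1 was the lowest array. Another probe averaged 0.56 for Col14a1 and 0.995 for Postn, with the reference above background on none. Sparcl1, a secreted matrix protein, averaged 5.98 ± 0.16, Adamdec1, a metalloprotease of gut mesenchyme, 4.87 ± 0.08, and the membrane protein gene Itm2a 5.72 ± 0.37. Of 33 fibroblast and matrix genes, 23 were higher and 2 lower, with a median of 1.78. The lower share, 6.1%, was near the 6.00% of all tested genes. The lower ones were Thy1, a surface protein of fibroblasts and T cells, at -1.68, -1.20, -1.11 and -1.22 (-1.30 ± 0.26), and Fbln2, fibulin 2, at -1.45, -0.97, -0.93 and -1.06 (-1.10 ± 0.24). Fbln2 was no longer called without replicate 1 (-0.99).

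All 18 endothelial genes were higher, with a median of 2.67 and per-array medians of 2.48, 2.82, 2.46 and 2.77. Lyve1, the hyaluronan receptor of lymphatic vessels, read 5.65, 6.01, 5.63 and 5.86 (mean 5.79 ± 0.18, adjusted p 1.1e-06). Emcn of capillaries and veins averaged 4.67 ± 0.13, VE-cadherin, Cdh5, 4.57 ± 0.17, Cldn5 3.66 ± 0.11 and Sox17, a factor of arterial endothelium, 3.54 ± 0.13. The SD stayed below 0.2 for these 5 genes. Of 26 genes of enteric neurons and glia, 21 passed the filter and 17 were higher, with a median of 1.98. S100b, a glial calcium-binding protein, read 2.96, 3.62, 4.49 and 4.01 (3.77 ± 0.65), the most variable of the named ones. Its Cy5 signals were 3785, 7078, 21616 and 14096. They were lowest on replicate 1 and highest on replicate 3, as were the medians of the cartilage list described below. Which cells the S100b signal came from was not tested. Fabp7, a glial fatty acid binding protein, averaged 3.19 ± 0.11, the neuronal hydrolase gene Uchl1 3.04 ± 0.13, the RNA-binding protein gene Elavl4 2.39 ± 0.43 and the neuregulin receptor Erbb3 2.55 ± 0.14. Erbb3 had 4 further probes between 0.13 and 0.70, and the mean over its probes, 0.80, was not called. The other Elavl4 probe averaged 0.73. Ret, the receptor of enteric neuron precursors, and Cdh19 were not well above background on any array.

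Blood and immune genes were split. Of 18 macrophage genes 9 were higher and 5 lower, with a median of 1.21. Mrc1, the mannose receptor of resident macrophages, read 4.36, 4.82, 4.66 and 4.73 (mean 4.64 ± 0.20, adjusted p 1.3e-06), Cd163 averaged 2.99 ± 0.16 and the complement gene C1qa 2.60 ± 0.16. Ptprc, CD45, which all white blood cells carry, was lower at -3.59, -3.49, -3.63 and -3.55 (mean -3.56 ± 0.06, adjusted p 1.1e-06). Its 3 other probes averaged -1.895, -1.862 and -1.775. Cd14 averaged -2.59 ± 0.15 and Trem2 -2.28 ± 0.12. Lymphocyte genes were lower for 6 of 14 tested members and higher for 1, a number that ran from 0 to 4 under the other settings. The B cell gene Ms4a1 read -4.14, -4.11, -4.06 and -4.29 (-4.15 ± 0.10), among the 20 lowest ratios, and the T cell receptor subunit Cd3g averaged -2.80 ± 0.13. The mast cell proteases Cma1 and Cpa3 were higher at 2.98 ± 0.18 and 2.83 ± 0.23. S100a9, a calcium-binding protein of neutrophils and squamous epithelium, read 4.18, 4.51, 4.69 and 4.49 (4.47 ± 0.21), and lactoferrin, Ltf, averaged 3.17 ± 0.28. Ltf also belongs to the airway secretory list described below. Of 16 tested red cell genes 14 were higher (9 with both channels required above background), with the globin gene Hbb-bt at 3.31 ± 0.28 and Slc4a1, the anion exchanger of red cells, at 3.14 ± 0.17. Hbb-bt is 1 of 2 near-identical adult globin genes, so its probe may read both.

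Pathway genes of gut development were mostly higher or near the reference. Shh, the Hedgehog ligand of foregut epithelium, read 2.74, 2.55, 1.59 and 2.24 (mean 2.28 ± 0.50, adjusted p 0.00015), with its lowest value on replicate 3, where the reference was not above background, and Dhh, a related ligand of glial cells, averaged 2.83 ± 0.35. The Hedgehog-binding inhibitor Hhip read 3.15, 3.58, 3.04 and 3.59 (3.34 ± 0.29), and the coreceptor Boc averaged 2.00 ± 0.19. Of 15 tested Hedgehog genes 6 were higher and 0 lower, with a median of 0.69. In the BMP pathway 10 of 23 were higher and 1 lower. Chrdl1, an antagonist, averaged 2.60 ± 0.21, the pseudoreceptor Bambi 2.36 ± 0.14 and the inhibitor of differentiation Id4 3.56 ± 0.35. Grem1, another BMP antagonist, was the lower one at -1.57, -1.57, -1.56 and -1.69 (-1.60 ± 0.06). In the Wnt pathway 17 of 28 tested genes were higher. Wnt2, a mesenchymal ligand, averaged 3.35 ± 0.33, the agonist Rspo1 3.22 ± 0.15, its receptor Lgr5 3.24 ± 0.24 and the secreted inhibitor Wif1 3.85 ± 0.50. The Cy5 signals were 7437, 9677, 2067 and 6171 for Wnt2 and 1200, 822, 276 and 574 for Shh. Both were lowest on replicate 3, as was the distal lung list described below. The part of lung tissue in these signals was not tested. The nuclear factors Lef1 and Tcf7 were lower, at -2.38, -1.91, -1.92 and -1.96 (-2.04 ± 0.22) and -2.12, -2.03, -2.54 and -2.19 (-2.22 ± 0.23). In the retinoic acid pathway 7 of 14 were higher. The enzymes that make retinoic acid were among them, with Aldh1a3 at 3.93, 4.35, 4.15 and 4.3 (4.18 ± 0.19) and Aldh1a2 at 3.13 ± 0.07. The receptor Rarb averaged 2.22 ± 0.14, while Crabp1, which binds retinoic acid in the cell, was lower at -2.41 ± 0.19. The lower shares of the BMP, Wnt and retinoic acid lists were 4.3%, 7.1% and 7.1%, near the 6.00% of all tested genes.

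Hox genes differed by their position in the clusters. These homeobox genes are numbered from the anterior to the posterior end of the axis they pattern. Of 12 tested genes with paralog numbers 1 to 5, 5 were higher and 0 lower (median 0.75). Of 6 with numbers 6 to 8, 0 were higher and 3 lower (median -1.12), and of 8 with numbers 9 to 13, 0 were higher and 7 lower (median -2.61). Hoxa4 read 2.11, 2.02, 2.24 and 2.34 (mean 2.18 ± 0.14, adjusted p 3.8e-06), Hoxa2 averaged 2.05 ± 0.16, Hoxb2 1.92 ± 0.05 and Hoxa5 1.75 ± 0.35. Hoxb3 averaged 2.39 ± 0.14 from its brightest probe and -0.78 from its other probe. The other probes of Hoxa4 and Hoxb2 averaged 0.38 and 0.52, so that 3 of the 5 higher calls rest on 1 of 2 probes. At the posterior end Hoxc9 read -4.04, -4.06, -4.07 and -4.20 (mean -4.09 ± 0.07, adjusted p 1.1e-06), Hoxa11 -3.99, -3.85, -3.69 and -3.87 (-3.85 ± 0.12), Hoxb9 averaged -3.1 ± 0.19 and Hoxa10 -3.05 ± 0.08. Hoxc6 averaged -2.75 ± 0.11. Hoxb8, Hoxc12 and Hoxc13 were not well above background in the esophagus on any array while the reference was on all 4, which makes them at least 1.34-fold, 2.78-fold and 2.00-fold lower.

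**Figure D3:**
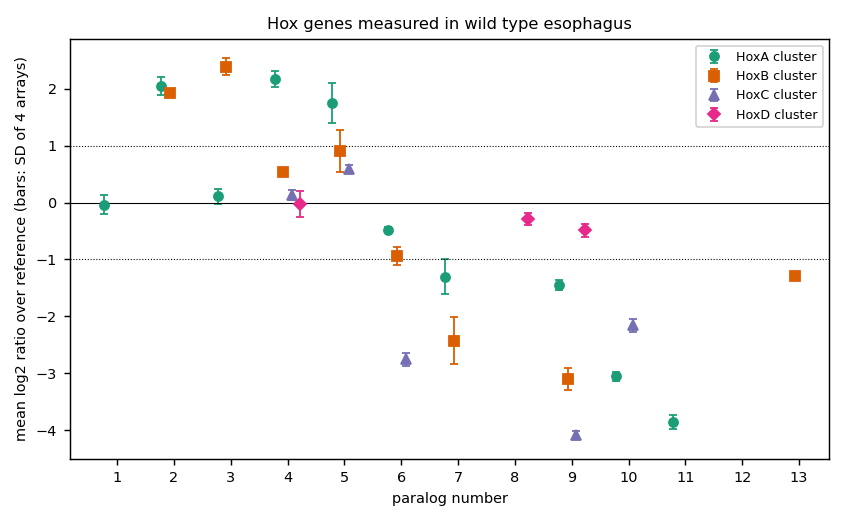
Mean log2 ratio of the 26 tested Hox genes against their paralog number, coloured by cluster, with bars for the SD over 4 arrays and dotted lines at a 2-fold difference. The 5 called higher have numbers 2 to 5, and the 10 called lower have numbers 6 to 13.

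Imprinted growth genes were higher in 17 of 19 members, with a median of 2.32. These genes are expressed from 1 parental copy and are active in fetal tissues. Plagl1, a zinc finger factor that regulates others of the group, read 5.73, 5.98, 6.15 and 6.16 (mean 6.01 ± 0.20, adjusted p 1.1e-06), the third highest ratio of the genes ranked. Mest averaged 3.45 ± 0.23, Cdkn1c, an inhibitor of the cell cycle, 3.35 ± 0.27, and Dlk1 3.05 ± 0.24. Replicate 1 was the lowest array for each of these 4. Other high ratios were those of the forkhead factor Foxp2 (4.96 ± 0.11), the prion-like gene Prnd (4.88 ± 0.23) and Klhl13 (5.60 ± 0.40). Other Klhl13 probes averaged 1.25 and 0.55, with the reference above background on 0 and 3 arrays.

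Some genes could only be bounded, since the reference was not above background on any array. There were 482 such genes among those tested, of which 182 were called higher. Slitrk6, a membrane protein of sensory organs and neurons, was at least 32.4-fold higher and read 5.68, 4.90, 4.94 and 4.68. Cttnbp2, a cortactin-binding protein, was at least 16.6-fold higher, the carbonic anhydrase related gene Car8 at least 14.7-fold, and Dnah5, a dynein of motile cilia, at least 19-fold. These bounds hold for the probe used only. Other Dnah5 probes averaged 0.50 and 0.77, with the reference above background on 2 and 1 arrays. Other probes averaged 0.80 and 2.49 for Cttnbp2 and 1.40 for Car8, with the reference above background on none.

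Many genes of dividing cells were lower. Mitosis genes were lower in 11 of 25 members and higher in 0, with a median of -0.95, and DNA replication genes in 15 of 29 and 0, with a median of -1.01. Bub1, a kinase of the spindle checkpoint, read -1.61, -2.16, -2.02 and -1.94 (mean -1.93 ± 0.23, adjusted p 2e-05), although its other probe averaged 0.16. Cyclin B1, Ccnb1, averaged -1.44 ± 0.18, with other probes at -0.83 and -1.04, and the chromosome passenger kinase Aurkb -1.44 ± 0.26. Top2a, the topoisomerase of chromosome separation, read -1.01, -1.47, -1.20 and -1.37 (-1.26 ± 0.20), with other probes at -0.31 and -2.01, and Ube2c, a ubiquitin ligase partner in mitotic exit, averaged -1.29 ± 0.22. In the replication list Cdc45, part of the replicative helicase, read -1.70, -2.01, -1.80 and -1.87 (-1.85 ± 0.13), the licensing factor Cdt1 averaged -1.80 ± 0.22 and the primase subunit Prim1 -1.43 ± 0.18. Replicate 2 was the lowest array for each of these 8 genes. Many members lay close to the 2-fold line: centring on the array median left 7 mitosis and 9 replication genes lower, and the test against a 2-fold change left 3 and 3.

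Promoters of mitosis genes held the letters TTTGAA on either strand in 16 of 21 matched genes (76.2%), against 12.6% of tested genes and 18.1% of all promoters. This is the cell cycle homology region type of element, known from genes that peak in mitosis. The DNA replication list held it in 4 of 22 promoters. Of the 9 matched mitosis genes that were lower 6 held it, and of the 12 not called 10 did. The element is shown in capitals, as it stands on the sense strand (TTTGAA or TTCAAA), for 4 genes with it upstream of the start: the lower genes Ube2c (chr2:164769869-164769928, plus strand) and Top2a (chr11:99024334-99024393, minus strand), and Cdk1 (chr10:69352949-69353008, minus strand) and Kif11 (chr19:37376322-37376381, plus strand), which were not called.
Ube2c: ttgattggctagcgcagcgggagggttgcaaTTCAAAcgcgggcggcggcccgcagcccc
Top2a: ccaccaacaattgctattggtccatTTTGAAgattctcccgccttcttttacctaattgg
Cdk1: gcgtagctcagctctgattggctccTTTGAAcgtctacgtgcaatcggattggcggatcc
Kif11: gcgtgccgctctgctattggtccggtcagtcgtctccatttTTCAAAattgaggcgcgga
Cdk1, the mitotic kinase, read -0.70, -1.17, -1.06 and -1.01 and Kif11, a spindle motor, -0.77, -1.15, -0.69 and -0.99, with means of -0.98 ± 0.20 and -0.90 ± 0.21, just short of the 2-fold line, which some arrays passed. The median ratio of observed to expected CpG in matched promoters was 0.49 for higher genes, 0.64 for lower genes and 0.76 for genes not called.

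Myc and some genes of growth and stimulation were lower. Myc, a driver of ribosome production, read -1.86, -1.84, -1.69 and -1.84 (mean -1.81 ± 0.08, adjusted p 3.2e-06), and its other probes averaged -1.57 and -1.21. Of 21 genes of ribosome biogenesis and Myc 5 were lower and 0 higher, with a median of -0.86, and the number was 8 without replicate 1 and 9 with the scanner software's signals. Myc itself is among these 5, and also among the 9 lower immediate early genes given below. The nucleolar proteins Nolc1 and Mybbp1a averaged -1.31 ± 0.06 and -1.28 ± 0.15, while the other Nolc1 probe averaged -0.30. Of 19 immediate early genes, which cells switch on within minutes of a stimulus, 9 were lower and 0 higher (1 higher with the mean over probes), with a median of -0.91. Egr1 read -2.53, -1.94, -2.13 and -2.10 (-2.17 ± 0.25), Fos -2.45, -1.90, -2.06 and -1.52 (-1.98 ± 0.39), Ier3 averaged -1.96 ± 0.24 and Egr2 -1.76 ± 0.54. The lowest ratio among genes with both channels above background was that of Spp1, osteopontin, at -3.70, -5.94, -6.16 and -6.23 (mean -5.51 ± 1.21, adjusted p 0.00013), where replicate 1 stood above the other 3. The stromelysin gene Mmp3 read -5.22, -4.73, -4.60 and -4.77 (-4.83 ± 0.27), and the chemokines Cxcl1, Cxcl5 and Ccl4 averaged -4.76 ± 0.14, -3.95 ± 0.08 and -4.19 ± 0.11. Rpl39l, a testis form of a ribosomal protein, averaged -4.69 ± 0.20, the motility protein gene S100a4 -3.85 ± 0.10, and the placental hormone genes Prl2c5 and Prl2c3 -4.02 ± 0.11 and -3.71 ± 0.20. Beyond the tested genes, 283 were not above background in the esophagus on any array while the reference was on all 4.

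The esophagus channel also carried genes of neighbouring organs on all 4 arrays. Airway secretory genes were higher in 13 of 15 tested members, with a median of 3.09. Scgb3a2, a secretoglobin of the airway, read 5.64, 6.61, 6.5 and 6.61 (mean 6.34 ± 0.47, adjusted p 3.1e-06), the second highest ratio of the genes ranked. The mucins Muc4 and Muc5b averaged 3.90 ± 0.36 and 3.59 ± 0.20, and Agr2, which folds mucins, 3.73 ± 0.24. Multiciliated cell genes were higher in 21 of 24 tested members, with Dynlrb2 at 3.33 ± 0.19 and Tppp3 at 3.27 ± 0.26, both of ciliary microtubules. Distal lung genes were higher in 7 of 8. The surfactant genes Sftpd and Sftpc read 4.04, 4.35, 3.77 and 4.09 (4.06 ± 0.23) and 2.68, 2.90, 2.86 and 2.92 (2.84 ± 0.11). The even Sftpc ratios hide a fall in both channels on replicate 3. Its Cy5 signals were 462504, 481803, 55616 and 387719 and its Cy3 signals 48847, 47775, 6099 and 33077. Liver genes were higher in 16 of 17 tested members, with a median of 2.94. Fibrinogen gamma, Fgg, averaged 4.88 ± 0.25, Ambp 4.77 ± 0.51, alpha-fetoprotein, Afp, 4.73 ± 0.53, and Apoh 4.63 ± 0.38. Fat genes were higher in 12 of 13 tested members, with Cox8b at 3.99 ± 0.34 and the brown fat gene Cidea at 3.07 ± 0.44. Whether these signals came from cells of the esophagus or from other tissue in the sample was not tested.

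**Figure D4:**
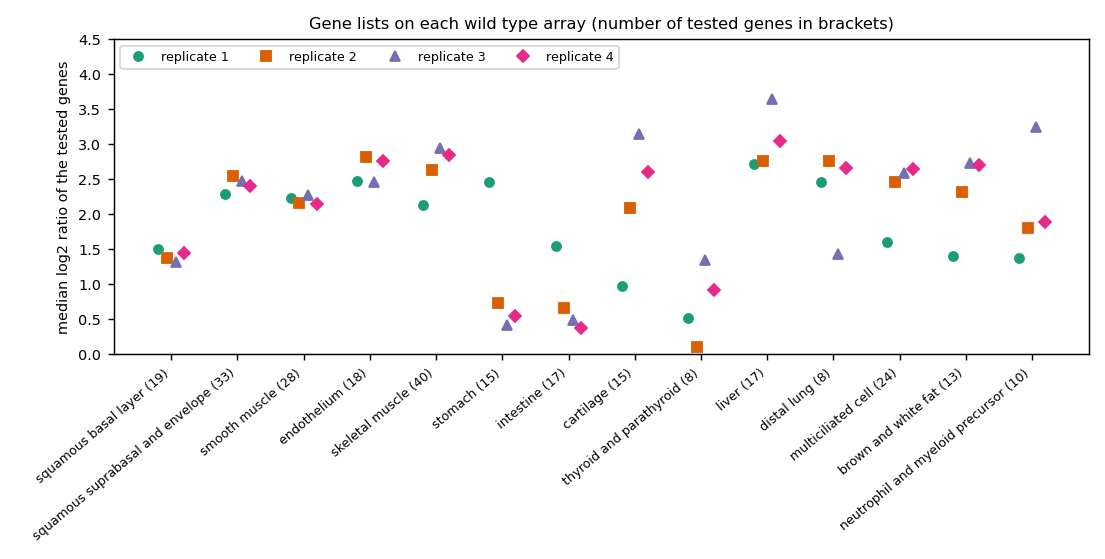
Median log2 ratio of the tested genes of 14 lists on each wild type array, with the number of genes in brackets. Basal, suprabasal and smooth muscle lists lay close together on the 4 arrays, while stomach was highest on replicate 1 (2.46 against 0.42 to 0.73) and cartilage on replicate 3.

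The 4 arrays agreed closely for most genes and differed widely for a few. The median SD of the log2 ratio was 0.13, the 99th percentile was 0.91, and 141 genes had an SD above 1. In the esophagus channel alone 486 genes had an SD above 1. Of the 83 genes whose Cy5 signal spanned over 4 on the log2 scale, 39 were highest on replicate 1, 31 on replicate 3, 10 on replicate 4 and 3 on replicate 2.

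Replicate 1 carried stomach genes. The stomach list had medians of 2.46, 0.73, 0.42 and 0.54 on replicates 1 to 4, and 20, 17, 15 and 17 of its 21 genes were above background. Pga5 was given above, and Atp4b, a subunit of the acid pump of parietal cells, had Cy5 signals of 110315, 253, 135 and 181. Anxa10, an annexin of gastric epithelium, had Cy5 signals of 51144, 222, 123 and 109 and log2 ratios of 5.89, 1.18, 0.65 and 0.54. Its reference was above background on replicate 1 only, so the other 3 ratios are not measured against a detected signal, and the same held for Lypd8. Tff1, a trefoil peptide of the stomach surface, had Cy5 signals of 106098, 372, 333 and 435 and ratios of 2.86, 1.25, 1.22 and 1.35. For all 4 genes replicate 1 alone was high. The same held for Ctse, cathepsin E (2.54, -1.52, -0.53 and -0.73), the keratin Krt20 (2.38, -1.91, -1.37 and -1.80), the galectin Lgals4 (3.56, 0.51, 0.24 and -0.08), Lypd8 (4.15, 0.81, 0.32 and 0.31) and villin, Vil1 (3.05, 1.00, 1.08 and 1.06). The intestine list had medians of 1.54, 0.67, 0.48 and 0.38. Without replicate 1 the genes called numbered 3574 higher and 1237 lower.

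The thyroid and cartilage lists had their highest medians on replicates 3 and 4. The thyroid and parathyroid list had medians of 0.52, 0.10, 1.34 and 0.91, with 3 of 8 tested genes higher and 5 not called. Tg, thyroglobulin, had Cy5 signals of 243, 338, 205595 and 149656 and log2 ratios of -0.93, -0.46, 3.55 and 3.38, and Calca, which encodes calcitonin of thyroid C cells, had Cy5 signals of 457, 622, 8655 and 14551. In both genes replicates 3 and 4 lay above replicates 1 and 2 with no overlap. The cartilage list had medians of 0.97, 2.09, 3.16 and 2.61. Col11a2 read -0.61, 0.72, 3.94 and 2.71 and Col11a1 2.79, 3.64, 4.53 and 4.24 among fibrillar collagens of cartilage, the cartilage matrix gene Snorc 0.49, 2.72, 4.00 and 3.65 and osteomodulin, Omd, -1.70, -0.47, 2.30 and 1.27. Ucma, a protein of the growth plate, had Cy5 signals of 317, 2468, 44931 and 21204. Each of these 5 genes was lowest on replicate 1 and highest on replicate 3. Cartilage genes were not confined to replicates 3 and 4: the collagen gene Col2a1 had Cy5 signals of 13124, 20695, 95592 and 51755. Tenomodulin, Tnmd, of tendon read 0.07, 2.05, 3.75 and 3.11, and myostatin, Mstn, of skeletal muscle 0.59, 2.23, 3.98 and 4.40. Tnmd was no longer called without replicate 2 (mean 2.31) or replicate 4 (1.96). The reference was not above background on replicate 1 for Tnmd, and was above it only on replicate 3 for Mstn, so the ratios on the other arrays are not measured against a detected reference. The liver list was highest on replicate 3 (2.72, 2.76, 3.65 and 3.06), as were the neutrophil precursor genes Camp (1.71, 2.11, 4.04 and 2.70) and Mpo (1.67, 2.08, 3.74 and 2.78) and fetuin B, Fetub, of liver (-0.76, -1.40, 2.10 and 0.05). The distal lung list was lowest there (2.47, 2.77, 1.43 and 2.67). Without replicate 3 the thyroid list had 1 higher gene in place of 3.

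The arrays also differed by sex chromosome genes. Xist, the RNA that silences 1 X chromosome in female cells, had Cy5 signals of 67252, 60175, 205 and 57262 and ratios of 1.93, 1.74, -6.62 and 1.41. Ddx3y, a gene of the Y chromosome, had Cy5 signals of 100, 97.5, 3824 and 99.7 and ratios of -3.48, -3.71, 1.54 and -3.74. Replicate 3 stood alone in both, with Xist low and Ddx3y high. Its Xist reference signal was 12114, 13370, 16998 and 14160 on the 4 arrays, and here Cy3 did not follow Cy5. Nnt, a mitochondrial transhydrogenase gene that carries a known deletion in C57BL/6J mice, read 0.01, 0.05, 0.11 and -0.64, with replicate 4 below the others. Whether its probe lies in the deleted part is not known here.

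**Figure D5:**
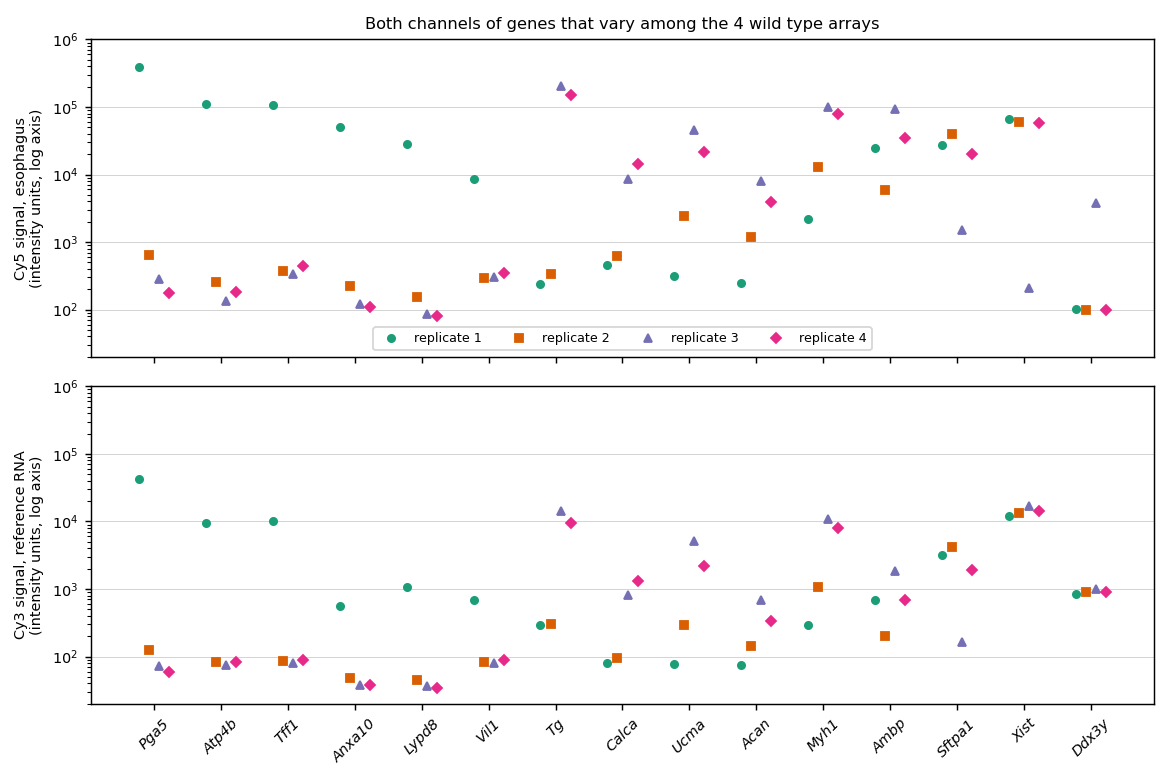
Signal of 15 genes in the esophagus channel (upper panel) and the reference channel (lower panel) on each wild type array, in intensity units on a log axis. Pga5 to Vil1 were high on replicate 1, Tg and Calca on replicates 3 and 4, and for most genes the reference channel was high on the same arrays, while Xist and Ddx3y varied in the upper panel and little in the lower one.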

How the data were processed

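Total RNA was hybridised to Agilent arrays with 2 colours. Per the file headers, the deposited files hold the mean intensity of each spot and its local background, written by Feature Extraction 10.7.3.1, while the submitters' processing notes name Agilent Feature Extraction 9.1. The authors' deposited value table holds log2 ratios, which correlated with the software's own ratios at 0.998 or more on each array, so Cy5 over Cy3 is its direction too, and its column medians lay between -0.10 and -0.03. The software's own log10 ratios are deposited in the same files.

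Outlier spots (119 to 168 per array) and 1639 control spots of 45018 were left out. Local backgrounds marked as outliers (1417 to 1796 spots per array) were replaced by the array's median background, because 6 spots on replicate 3 lay over 60 units below their local background, and with it as deposited the background mean fitted by normexp was -233 in Cy5 there, against -9.14 to -8.82 on the other arrays. Normexp (offset 50) and loess followed. limma 3.58.1 in R 4.3.3 tested the 4 ratios against 0 with eBayes. For bounds, a dim channel was set, array by array, to the lowest signal of any probe above background, or to its own signal where that was larger. This was done after loess and Aquantile, so bounds are open to dye bias. Each bound is on the mean over the 4 arrays. Where the dim channel's own signal was used on every array, the bound equals the fold of the mean ratio.

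Probes were named through RefSeq by accession (26918) or symbol (5899), and 8357 kept the name in the file. Of 6716 genes with several probes, 1055 had probes that differed by over 1.

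Named genes were the 20 highest and 20 lowest ratios with both channels above background, the 20 largest bounds and SDs, up to 5 called members of each of 40 lists in each direction, list members not above background, and Trp63, Krt5, Krt14, Krt4, Krt13, Nnt, Cdx2, Vil1 and Xist. The members, lists and rule were chosen with earlier results of these data known. Pga5, Atp4b, Ucma and the genes named for their promoter motif were picked after their values were seen. In simulated arrays of 19710 genes, 92.5%, 100% and 97.0% of changes by 1.5, 2 and 3 on the log2 scale were called, and 0 unchanged genes. The simulated noise was normal with each gene's own SD. It held no dye effect, no compression of ratios and no Cy3 signal that follows Cy5. As a mean of at least 1 was required, an unchanged gene could hardly be called, so the simulation gives no rate of false calls for these arrays. Alternatives were other backgrounds, scalings, filters, probe choices, priors, the fit of all 9 arrays, and leaving out 1 array at a time. p-values measure the spread between these 4 arrays only. Some genes that the rule names are not reported here.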

Additional observations from a re-analysis of the deposited data

Results flagged for a closer look

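Of 185 genes described, 20 had 1 array far from the other 3 (gap over range above 0.829, Dixon's limit for 4 values), and so had 1 of 40 list medians. Chance alone gives about 1 in 20, but some of these genes were chosen for their spread over the same arrays, so the number cannot be read against it. For Anxa10 and Lypd8 the reference was above background on replicate 1 only.

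Stomach and intestine genes stood apart on replicate 1: the log2 ratio there was 5.89 for Anxa10, 4.15 for Lypd8, 3.56 for Lgals4, 3.05 for Vil1, 2.86 for Tff1 and 2.38 for Krt20, and the median of the stomach list was 2.46. Replicate 1 was also the far array for Spp1, which was higher there at -3.70, and for Scgb3a2 (5.64), Cox8b (3.48), Tppp3 (2.88), Cldn3 (2.85), Ngfr (2.65), Boc (1.71) and Lef1 (-2.38), all lower there than elsewhere. On replicate 3 the sex chromosome genes Xist (-6.62) and Ddx3y (1.54) stood apart, and so did Slc4a1 (3.39) and Myc (-1.69), both by small steps. On replicate 4, whose source field disagrees with its title, Nnt (-0.64) and Grem1 (-1.69) were lower than on the other arrays.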

How the results depend on the processing

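The number of lower genes rose to 2250 with the processed signals of the scanner software and to 2251 with the value table deposited by the authors, and fell to 749 with a test against a 2-fold change, where 2501 were higher. All 1182 lower genes were among the 2250 and the 2251. Leaving out each array in turn gave 3444 to 3574 higher and 1151 to 1237 lower genes. With the local background as deposited, added after the data were seen, 3181 were higher and 1067 lower, all of them among those reported. Over the settings tried, higher genes ranged from 2501 to 4278. The genes with an SD above 1 rose from 141 to 486 in the esophagus channel alone and lay between 151 and 211 under the other scalings. Of 171 called genes described, 16 lost their call under at least 1 setting (22 of 3070 values) and 0 changed direction. Of 1440 list counts, 1395 stayed within 1.5 times, where a count of 0 that stayed at 0 is included. Many lists had 0 lower members, so the stability of the other counts cannot be read from this number. With the test against a 2-fold change, higher members numbered 3 for stomach and for intestine, 7 for cartilage, 5 for neutrophils and 9 for red cells. Each ratio already pairs both channels of 1 array. Across groups by replicate number, no paired analysis was possible because only 1 group enters the comparison. Signal over background limits the lower calls, since 8394 genes had no probe above it in the esophagus on all 4 arrays. All 4 arrays shared a slide, so a slide block was not fitted, and without a dye swap the dye effect of a probe stays in its ratio.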
